A study of Mus musculus with 6 samples.

Results

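Lipid droplets are the fat stores of cells, a core of neutral lipid wrapped in a single phospholipid layer and a coat of proteins. The genes described here encode 10 of the proteins that build, coat and fuse these droplets: the perilipins Plin1 to Plin5, which cover the surface and gate access of lipases, the fusion proteins Cidea and Cidec, the assembly factors Bscl2 (seipin) and Fitm2, which act where droplets bud from the endoplasmic reticulum, and Hilpda, a small droplet protein that restrains adipose triglyceride lipase and is induced by low oxygen and by fatty acids in many cell types. The genes were taken by symbol from a table of 14943 gene symbols, and all 10 were present. In white fat cells Plin1, Plin4 and Cidec are the characteristic coat and fusion genes and serve the single large droplet. Plin2 and Plin3 are made in most cells that hold small droplets, macrophages among them. Plin5 belongs to cells that burn much fat, and Cidea is best known from brown and beige fat of the mouse.

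RNA was sequenced from the peritoneum, the lining of the abdomen, of wild-type male C57BL/6J mice aged 8 weeks, in 6 libraries. The 3 EPS libraries come from a model of encapsulating peritoneal sclerosis, in which mice were injected intraperitoneally every day with dialysis solution (4.25%, 100 mL/kg) plus 0.3 mL of what the labels call SHS and with lipopolysaccharide (LPS, 4 mg/kg) every week. The 3 control libraries come from mice given an equal volume of saline, and tissue was collected in week 3. All agents were given to the same mice, so the effect of any 1 of them cannot be told apart from the others. The labels do not say whether a library is 1 mouse or a pool, so p-values measure the spread between these libraries.

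Library totals lay between 15419232 and 17684229 counts. EPS 1 stood apart: 16 pancreatic acinar markers took 18.1% of its counts, against 0.0270% and 0.0821% in EPS 2 and EPS 3 and 0.0359% to 0.410% in controls, and none of these markers was called. The libraries carried fat in quantity, since 14 adipocyte markers summed to between 3915 and 5919 CPM in EPS and between 35540 and 36720 CPM in control (CPM, read counts scaled to a common library size, here with TMM factors). Mesothelial markers, which define the labelled tissue, summed to only 88.4 to 447 CPM in EPS and 206 to 309 CPM in control. The highest of these sums, 447 CPM, was that of EPS 1, the library with many acinar counts. None of the mesothelial markers was at 0, and 1 of 14 was called (lower). Across all 13980 genes tested by edgeR's quasi-likelihood test, 59.6% were called at a Benjamini-Hochberg adjusted p under 0.05, with 49.1% of the calls higher in EPS. With library totals in place of TMM factors 72.2% of calls were higher and the median gene shifted by 0.42 on the log2 scale, so differences in CPM below are relative to the TMM scaling, while ratios and shares within a library do not depend on it.

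Most of the droplet genes were far lower in EPS peritoneum. Of the 10 genes, 8 fell and none rose, and their median log2 fold change was -2.99, where 30.4% of all tested genes fell, 29.2% rose and the median was -0.02. The fusion gene Cidea fell by 20.2-fold and the coat genes Plin4 and Plin5 by 14.5-fold each, Cidec by 11.1-fold, Plin1 by 8.06-fold, Fitm2 by 7.81-fold, Bscl2 by 4.58-fold and Plin2 by 3.00-fold. Plin3 and Hilpda did not pass the test. Without EPS 1 the count was again 8, with log2 fold changes of -2.75 for Plin1 and -1.38 for Plin2 in place of -3.01 and -1.59. Levels of the groups did not overlap for 9 of the 10 genes, Hilpda being the exception, beside 68.5% of all tested genes. In bulk tissue, fewer fat cells and less of a transcript in each fat cell cannot be told apart.

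**Figure D1:**
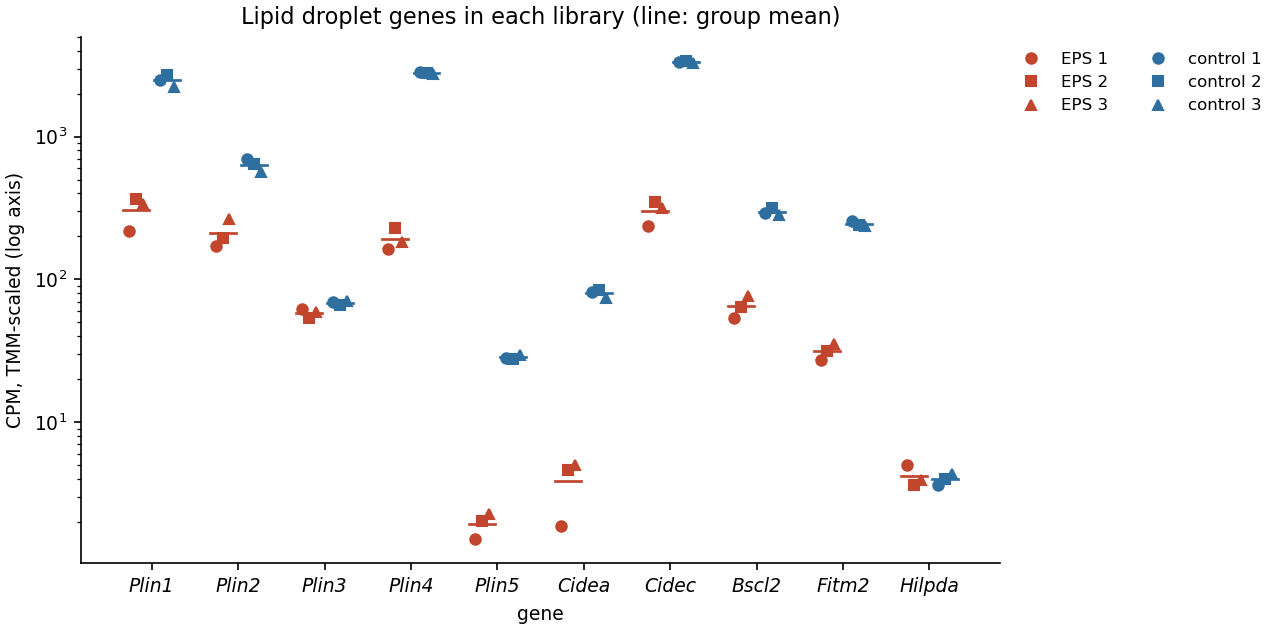
Level of each of the 10 droplet genes in each library, in TMM-scaled CPM on a log axis, EPS in red and control in blue, with a line at each group mean. For 8 genes the EPS points lie well below the control points, those of Plin3 lie slightly below and those of Hilpda overlap.

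The start regions of the coat and fusion genes are shown because they set 3 genes with large decreases beside Plin2, which had the smallest significant decrease. Each is 300 bases, running from upstream of the transcription start in RefSeq to 50 bases past it (GRCm38.p6), on the gene's own strand. Capitals mark motifs found on either strand. These are AGGTCA, the half-site of nuclear receptors such as PPAR gamma, and ACGTG, one form of the core bound by hypoxia-inducible factors. The other form, GCGTG, was not searched or marked, and the Cidec and Plin2 windows hold it on the opposite strand. Plin4 (chr17:56109733-56110032, minus strand), Cidec (chr6:113435711-113436010, minus), Plin1 (chr7:79732727-79733026, minus) and Plin2 (chr4:86670010-86670309, minus) read:
Plin4: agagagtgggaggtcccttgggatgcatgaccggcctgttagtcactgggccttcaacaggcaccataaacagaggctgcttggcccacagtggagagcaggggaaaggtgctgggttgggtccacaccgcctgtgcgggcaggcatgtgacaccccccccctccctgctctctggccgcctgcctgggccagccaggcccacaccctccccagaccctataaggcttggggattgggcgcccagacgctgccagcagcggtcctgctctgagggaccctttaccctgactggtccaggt
Cidec: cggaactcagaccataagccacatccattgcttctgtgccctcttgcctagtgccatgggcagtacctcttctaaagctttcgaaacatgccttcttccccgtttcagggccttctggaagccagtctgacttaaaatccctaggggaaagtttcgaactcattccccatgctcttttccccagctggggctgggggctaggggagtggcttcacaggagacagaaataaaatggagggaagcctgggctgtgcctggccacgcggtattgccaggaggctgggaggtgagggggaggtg
Plin1: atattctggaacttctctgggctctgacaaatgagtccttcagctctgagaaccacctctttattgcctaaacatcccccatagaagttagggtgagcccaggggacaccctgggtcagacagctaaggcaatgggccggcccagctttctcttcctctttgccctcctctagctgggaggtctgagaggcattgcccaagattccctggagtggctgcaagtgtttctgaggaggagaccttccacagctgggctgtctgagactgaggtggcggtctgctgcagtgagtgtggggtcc
Plin2: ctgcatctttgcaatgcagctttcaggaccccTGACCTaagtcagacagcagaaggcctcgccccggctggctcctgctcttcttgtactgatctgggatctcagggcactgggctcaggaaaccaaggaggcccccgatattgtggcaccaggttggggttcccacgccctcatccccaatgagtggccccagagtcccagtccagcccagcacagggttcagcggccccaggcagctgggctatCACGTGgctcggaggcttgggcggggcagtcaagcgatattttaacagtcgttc
Of these 4, only the Plin2 window held AGGTCA or ACGTG. It had AGGTCA on the opposite strand, starting at position -218 from the transcription start, and a CACGTG at position -4, which is ACGTG on both strands. AGGTCA was found in 16.3%, ACGTG in 19.6% and CACGTG in 7.15% of the 32851 windows of the same length. The full receptor site, a direct repeat of the half-site with a single base between the copies, was in 0.0396%, none of them a member's. Windows were found for 9 of the 10 genes, and among those not printed the window of Plin5, which fell by 14.5-fold, also held AGGTCA, at position -170. A match describes letters only, and receptor sites of fat cell genes often lie outside such windows.

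Plin1 encodes the main coat of the large droplet of white fat cells, which holds back lipolysis until it is phosphorylated (chromosome 7, 79720218 to 79732903, minus strand, GENCODE vM21 on GRCm38, as for the positions below). Its level was 218, 363 and 339.6 CPM in EPS libraries 1 to 3, against 2511, 2685 and 2222 CPM in the control libraries 1 to 3. All EPS values were below all control values, and EPS 1 was the lowest. The group means were 307 ± 78.1 CPM in EPS and 2473 ± 234 CPM in control (SD, n = 3 each), a log2 fold change of -3.01 ± 0.22 (SE; edgeR adjusted p = 1.49e-05).

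Plin4, a coat protein of nascent fat cell droplets with a long run of repeats, lies beside Plin5 on chromosome 17 (56100591 to 56109803). It stood at 163, 229 and 182 CPM in EPS and at 2813, 2776 and 2761 CPM in control, so the control libraries lay close together and every EPS library was more than an order of magnitude below them. Its log2 fold change was -3.86 ± 0.17 (edgeR adjusted p = 2.31e-06). Plin4 shares 17 exon bases with Hdgfl2 on the opposite strand, a gene that was not called (44.0 ± 6.70 CPM in EPS and 40.2 ± 3.80 CPM in control).

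Plin5, which ties droplets to mitochondria, was scarce in both groups (chromosome 17, 56111601 to 56117596). It had 22, 43 and 46 counts in EPS and 397, 417 and 447 in control, or 1.94 ± 0.383 CPM in EPS and 28.5 ± 1.01 CPM in control. The groups were wide apart, with a log2 fold change of -3.86 ± 0.18 (edgeR adjusted p = 2.79e-06). Counts of Plin4 over those of Plin5 differed by 0.02 on the log2 scale between EPS and control, and the ranges of this ratio overlapped.

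Plin2, the coat protein of small droplets in most cell types, was the perilipin that fell least among those called (chromosome 4, 86648386 to 86670060). It stood at 171, 195 and 266 CPM in EPS and at 692, 639 and 569 CPM in control. The ranges did not overlap and EPS 3 was the highest EPS library. The means were 211 ± 49.5 CPM in EPS and 633 ± 61.7 CPM in control, and the log2 fold change was -1.59 ± 0.18 (edgeR adjusted p = 1.51e-04).

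Plin3, a coat protein that moves between cytosol and droplet, stood at 61.8, 53.9 and 59.0 CPM in EPS and at 69.8, 65.9 and 70.6 CPM in control (chromosome 17, 56277476 to 56292873). The EPS values lay below the control values by a small margin. The log2 fold change of -0.24 ± 0.09 did not pass (edgeR adjusted p = 0.0571), and its unadjusted 95% interval ran from -0.46 to -0.02. With library totals the estimate had the opposite sign, 0.17 ± 0.17 (adjusted p = 0.410).

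The fusion proteins pass lipid from smaller to larger droplets. Cidec, also called FSP27, had the highest level of the 10 genes per kilobase of exon in both groups, while in CPM Plin1 was slightly above it in EPS (chromosome 6, 113424634 to 113435760). It stood at 235, 348 and 317 CPM in EPS and at 3329, 3404 and 3276 CPM in control. Again EPS 1 was lowest and no EPS library came near the controls, with a log2 fold change of -3.48 ± 0.18 (edgeR adjusted p = 3.65e-06). Cidea (chromosome 18, 67343604 to 67367785) had the lowest log2 fold change of the 10, -4.34 ± 0.31 (edgeR adjusted p = 2.43e-05). Its counts were 27, 99 and 102 in EPS and 1141, 1269 and 1117 in control, or 3.86 ± 1.73 CPM in EPS and 79.7 ± 5.21 CPM in control. For every 100 counts of Cidec there were 0.796, 1.337 and 1.596 counts of Cidea in EPS and 2.45, 2.46 and 2.26 in control. This ratio, free of library scaling, was lower in all 3 EPS libraries.

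The assembly factors fell as well. Bscl2, whose loss causes lipodystrophy, stood at 53.5, 64.0 and 76.6 CPM in EPS and at 293, 315 and 281 CPM in control, without overlap (chromosome 19, 8837467 to 8848683). Its log2 fold change was -2.19 ± 0.15 (edgeR adjusted p = 9.58e-06). Bscl2 shares 6.75% of its exon bases with Gng3 on the opposite strand, which was at 0.806 ± 0.102 CPM in EPS and 2.14 ± 1.22 CPM in control. Fitm2, an enzyme of the endoplasmic reticulum needed for droplets to bud, stood at 27.1, 31.6 and 35.2 CPM in EPS and at 258, 240.25 and 235 CPM in control (chromosome 2, 163466379 to 163472629). The spread within each group was small beside the gap, and the log2 fold change was -2.96 ± 0.13 (edgeR adjusted p = 2.10e-06).

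Hilpda was scarce and did not differ detectably (chromosome 6, 29272488 to 29275446). It had 73, 77 and 80 counts in EPS and 51, 61 and 66 in control. On the scaled libraries these are 5.06, 3.62 and 3.96 CPM in EPS and 3.64, 4.03 and 4.37 CPM in control, and the groups overlap. The log2 fold change was 0.07 ± 0.25 (edgeR adjusted p = 0.837), and the 95% interval of the EPS to control ratio ran from 0.698 to 1.57. The sign turned without EPS 1 (-0.01) and without control 1 (-0.0022).

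**Figure D2:**
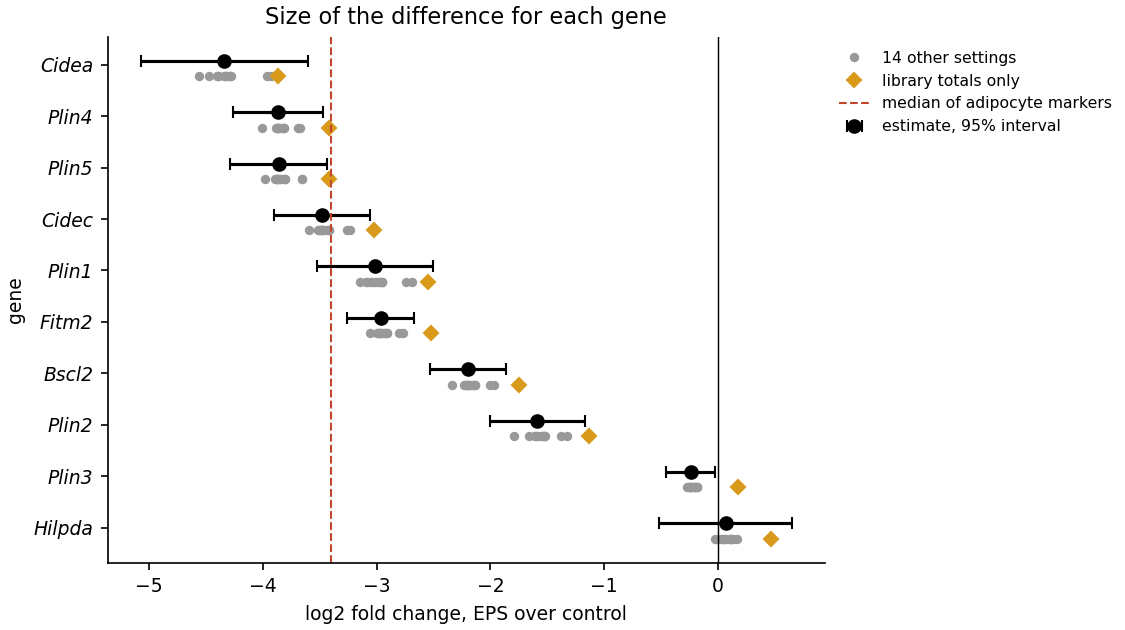
Log2 fold change of EPS over control for each gene (black, with 95% interval from the fit), under 14 other settings (grey) and with library totals (yellow), beside the median of the adipocyte markers at -3.40 (dashed). The 8 called genes stay left of 0 under every setting plotted, Plin3 crosses 0 with library totals, and Hilpda lies around 0.

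Per kilobase of exon, which allows levels of different genes to be compared, Cidec led in both groups with 162 ± 31.4 CPM per kb in EPS and 1798 ± 34.6 in control. In EPS it was followed by Plin1 (66.0 ± 16.8), Plin2 (60.1 ± 14.1), Plin4 (33.1 ± 5.84), Plin3 (15.4 ± 1.06), Bscl2 (11.0 ± 1.96), Fitm2 (7.89 ± 1.03), Hilpda (3.82 ± 0.682), Cidea (3.46 ± 1.55) and Plin5 (0.930 ± 0.184). Plin1 and Plin2 overlapped, as did Hilpda and Cidea, and the other neighbours in this order were apart in all 3 libraries. In control the order was Cidec, Plin1 (532 ± 50.3), Plin4 (482 ± 4.66), Plin2 (180.4 ± 17.6), Cidea (71.5 ± 4.67), Fitm2 (61.7 ± 3.07), Bscl2 (50.2 ± 2.89), Plin3 (18.2 ± 0.664), Plin5 (13.7 ± 0.485) and Hilpda (3.64 ± 0.328), and only the ranges of Plin1 and Plin4 overlapped. Plin2 thus overlapped with Plin1 in EPS, and Plin3, the second lowest perilipin in control, stood above Bscl2, Fitm2 and Cidea in EPS.

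The make-up of the perilipin transcripts differed between the groups. The 5 perilipin genes summed to 141, 188 and 197 CPM per kb in EPS and to 1256, 1271 and 1151 in control. Of this sum, Plin2 was 34.6%, 29.5% and 38.5% in EPS and 15.7%, 14.3% and 14.1% in control, a difference of 19.5 percentage points. Plin3 made up 9.02% ± 2.23 in EPS and 1.49% ± 0.126 in control. Because the sum was lower in EPS, a gene lower by less than the sum takes a larger share by arithmetic. This holds for Plin2 and Plin3, neither of which was higher in EPS in CPM. Plin4 was 19.0% ± 2.68 in EPS and 39.4% ± 1.93 in control, Plin1 was 37.2% ± 4.12 in EPS and 43.3% ± 1.98 in control, and Plin5 was 0.529% ± 0.0220 in EPS and 1.12% ± 0.101 in control. No range overlapped between EPS and control for any of these shares, although the highest EPS share of Plin1 (41.4%) lay just under the lowest control share (41.5%). With counts not divided by exon length the difference in Plin1 was -1.78 percentage points in place of -6.09 (exact permutation p = 0.6), so the Plin1 share is not shown to differ, and that in Plin5 was -0.225 in place of -0.588. The ratio of Plin2 to Plin1, which needs no library scaling, was 1.04, 0.712 and 1.04 in EPS and 0.365, 0.315 and 0.339 in control, higher in 3 of 3 EPS libraries by 1.44 on the log2 scale (1.34 without EPS 1). The exact two-sided permutation p was 0.1 for the ratio and for each of the 5 shares (0.1 after adjustment over the 5), the smallest that 3 against 3 libraries allow, so none of these can pass 0.05.

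**Figure D3:**
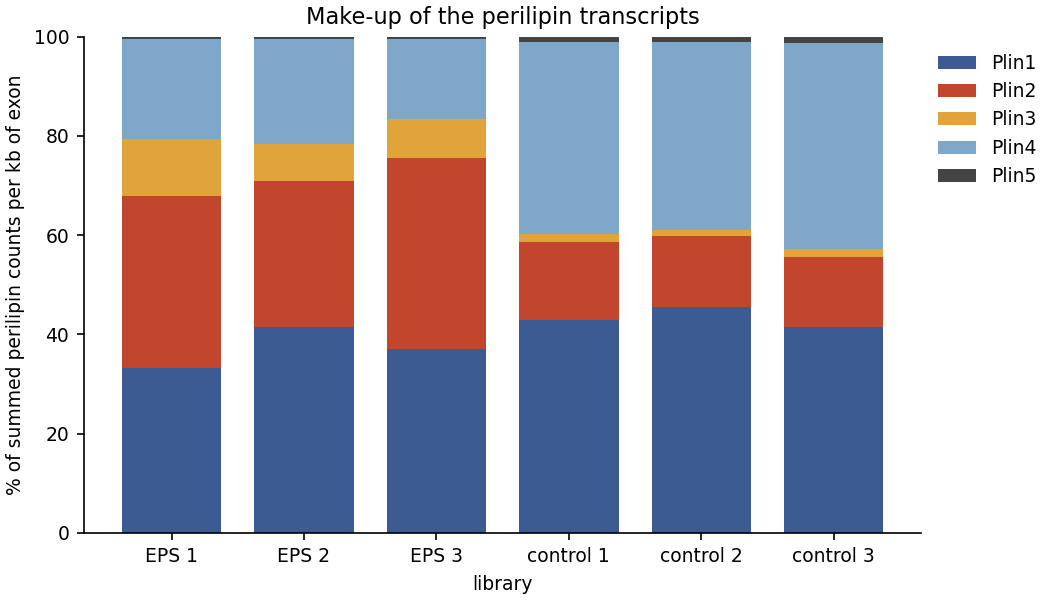
Share of each perilipin gene in the summed perilipin counts per kb of exon, as stacked bars for each library, EPS on the left and control on the right. Plin2 (red) and Plin3 (yellow) take a larger part and Plin4 (light blue) a smaller part of each EPS bar.

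Set against the fat cell markers of the same library, some droplet genes were higher in EPS and others lower. The counts of each gene were divided by the summed counts of the 14 adipocyte markers, a ratio chosen after the values were known and given as a description. Hilpda was 0.0891% ± 0.0356 of the marker counts in EPS and 0.0111% ± 8.23e-04 in control, and Plin3 was 1.21% ± 0.339 in EPS and 0.191% ± 0.00709 in control. Plin2 was 4.29% ± 0.948 in EPS and 1.76% ± 0.199 in control, and Bscl2 was 1.31% ± 0.210 in EPS and 0.820% ± 0.0532 in control. These 4 genes were higher in EPS relative to the markers in all 3 libraries. Because the markers fell, with a median of -3.40 on the log2 scale, a gene that fell less than their sum comes out higher by arithmetic. The exact share of all tested genes that do so was not computed. Only 1.65% of them had a lower log2 fold change than Fitm2, whose ratio to the sum hardly differed (-0.097). Only 4.26% had a lower one than Bscl2. Nearly all tested genes would thus come out higher, so this is not particular to these 4 genes. Plin4, Plin5 and Cidea were lower relative to the markers, at -1.001, -1.02 and -1.62 on the log2 scale, and so was Cidec, at -0.62, with no overlap between the groups for any of these 4. Plin1 (6.10% ± 0.528 in EPS and 6.85% ± 0.718 in control) and Fitm2 (0.637% ± 0.0892 in EPS and 0.678% ± 0.0444 in control) overlapped between the groups. The sum rests on Car3 and Cfd, which held 32.6% and 33.2% of it in EPS and 25.7% and 20.8% in control. Against the geometric mean of the markers every gene moved up: Plin1 stood at 0.47, Fitm2 at 0.54 and Cidec at 0.02, all with the opposite sign. Plin4, Plin5 and Cidea were then at -0.36, -0.38 and -0.98, and Bscl2, Plin2, Plin3 and Hilpda at 1.31, 1.91, 3.27 and 3.57.

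**Figure D4:**
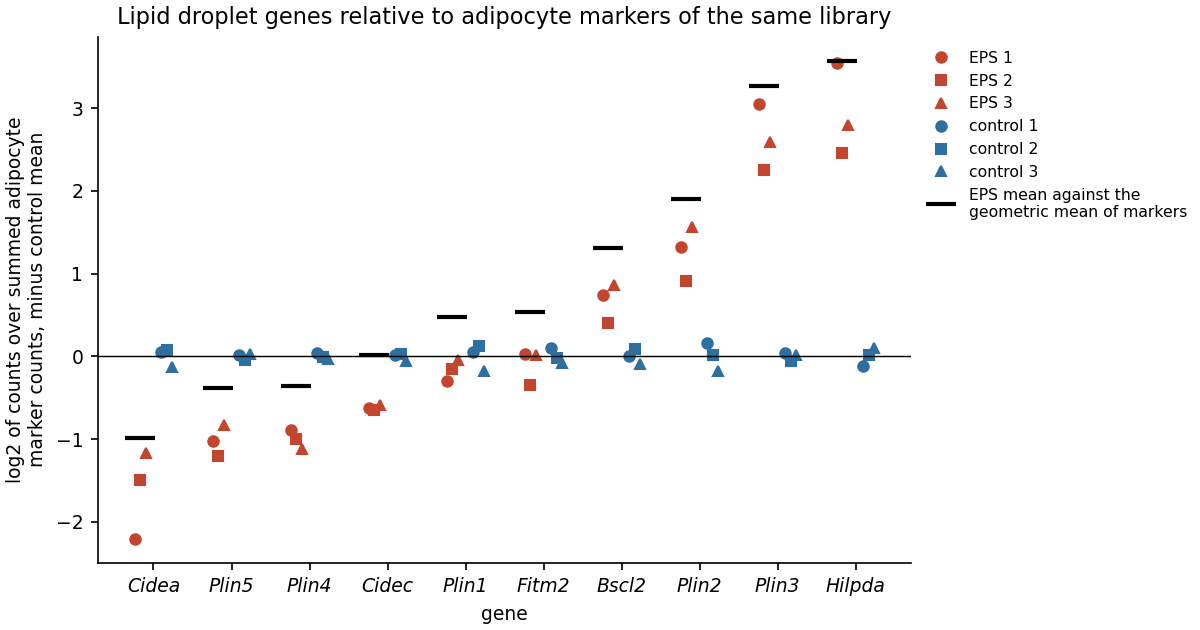
Log2 of each gene's counts over the summed adipocyte marker counts of the same library, minus the control mean, with EPS in red and control in blue. A black bar gives the EPS mean when the geometric mean of the markers is used instead. Cidea, Plin5 and Plin4 lie below 0 and Bscl2, Plin2, Plin3 and Hilpda above 0 by both measures.

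The fat cell markers themselves fell, 14 of 14 tested, with a median of -3.40 on the log2 scale. Trarg1, a trafficking regulator of the insulin-responsive glucose transporter, had a log2 fold change of -3.38 ± 0.16, and Lgals12, a galectin of the droplet surface in fat cells, -3.35 ± 0.16. Fabp4, the fatty acid carrier of fat cells, was at 549.8 ± 100.1 CPM in EPS and 6059.5 ± 35.4 CPM in control, and Cd36, a fatty acid transporter, had a log2 fold change of -3.52 ± 0.19.

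Genes that break down the stored triglyceride fell nearly as a block, 12 of 13, with 1 higher and a median of -3.30. Pnpla2, which encodes adipose triglyceride lipase, was at 407 ± 68.5 CPM in EPS and 4139 ± 258 CPM in control. Adrb3, the beta-3 adrenergic receptor that starts lipolysis, had a log2 fold change of -4.25 ± 0.23, Aqp7, a glycerol channel, -3.37 ± 0.18 and Ces1f, a carboxylesterase, -2.78 ± 0.15. The gene that rose was Faah, an amide hydrolase of endocannabinoids rather than a triglyceride lipase, named after its value was seen (2.76 ± 0.25).

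Genes that assemble triglyceride fell in 12 of 15 cases, with 1 higher and a median of -1.81. Lpin1, a phosphatidate phosphatase, had a log2 fold change of -3.15 ± 0.21 and Dgat1, which adds the last fatty acid, -2.56 ± 0.18. The acyltransferases Agpat3 and Gpat4 were at -1.26 ± 0.09 and -1.51 ± 0.13. Lpin2, the lipin known from liver and macrophages, was the gene that rose (1.18 ± 0.14), named after its value was seen.

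PPAR gamma is the receptor that drives fat cell formation and many droplet genes. Of 14 regulators and targets, 12 fell and 1 rose, with a median of -1.81. Pparg itself was at 38.5 ± 5.68 CPM in EPS and 225 ± 17.8 CPM in control, and Cebpa, its partner factor, had a log2 fold change of -2.60 ± 0.15. The targets Angptl4, an inhibitor of lipoprotein lipase, and Pdk4, a brake on glucose oxidation, were at -2.83 ± 0.12 and -3.58 ± 0.17. Cpt1a, which lets fatty acids into mitochondria and was named after its value was seen, rose by 0.46 ± 0.11.

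Other proteins of the droplet surface moved both ways, 6 higher and 14 lower of 31, with a median of -0.19 beside -0.02 for all genes. With library totals the counts were 10 higher and 8 lower. Lpcat2, an acyltransferase of phospholipid remodelling found in inflammatory cells, was at 31.5 ± 2.15 CPM in EPS and 4.17 ± 0.681 CPM in control. Mettl7a1 and Mettl7b, methyltransferase-like proteins of the droplet, had log2 fold changes of -2.30 ± 0.11 and -4.07 ± 0.28, and Cavin1, a coat protein of caveolae, -2.18 ± 0.18.

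Brown and beige fat markers gave 3 higher and 6 lower of 12, with a median of -1.01. Ucp1, their defining gene, was not among the 14943 gene symbols. Otop1, a proton channel, had a log2 fold change of -3.89 ± 0.24 and Kcnk3, a potassium channel, -2.41 ± 0.24. Tmem26, a surface marker of beige fat cells, was higher, at 4.54 ± 0.32, as was Epsti1, which is also induced by interferon, at 5.30 ± 0.40.

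Hypoxia genes, to which Hilpda belongs, gave 4 higher and 10 lower of 17, with a median of -1.21. Epas1, which encodes HIF-2 alpha, Egln1, a sensor that marks HIF for decay, Bnip3, a mitophagy receptor, and Vegfa, a blood vessel growth factor, had log2 fold changes of -2.06 ± 0.12, -1.25 ± 0.09, -1.92 ± 0.14 and -1.77 ± 0.14. The 4 that rose, named after their values were seen, were Slc2a1 (1.01 ± 0.13), Pfkfb4 (0.94 ± 0.22), Hif1a (0.79 ± 0.11) and P4ha1 (0.62 ± 0.11).

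Markers of macrophages, which also store lipid in Plin2-coated droplets, rose in 15 of 18 cases, with 2 lower and a median of 2.42. Their summed level was 4305 to 5038 CPM in EPS and 1302 to 1400 CPM in control, and none was at 0 in either group. Cd68, a lysosomal protein, Csf1r, a growth factor receptor, and the complement chains C1qa and C1qb rose by 3.16 ± 0.11, 2.01 ± 0.10, 2.14 ± 0.11 and 2.13 ± 0.10. The 2 that were lower, named after their values were seen, were Fabp5 (-1.19 ± 0.22) and Cd9 (-0.51 ± 0.16). Neutrophil markers rose in 12 of 12 cases, with sums of 752 to 2400 CPM in EPS against 19.6 to 35.9 CPM in control, and none was at 0. Skeletal muscle markers gave 4 higher and 3 lower of 12, and their sum was 143 to 339 CPM in EPS and 519 to 539 CPM in control. Genes of the hepatocyte list, several of which fat also makes, gave 4 lower of 5 tested. The part of these cells in the levels of Plin2, Plin3 and Hilpda was not tested.

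**Figure D5:**
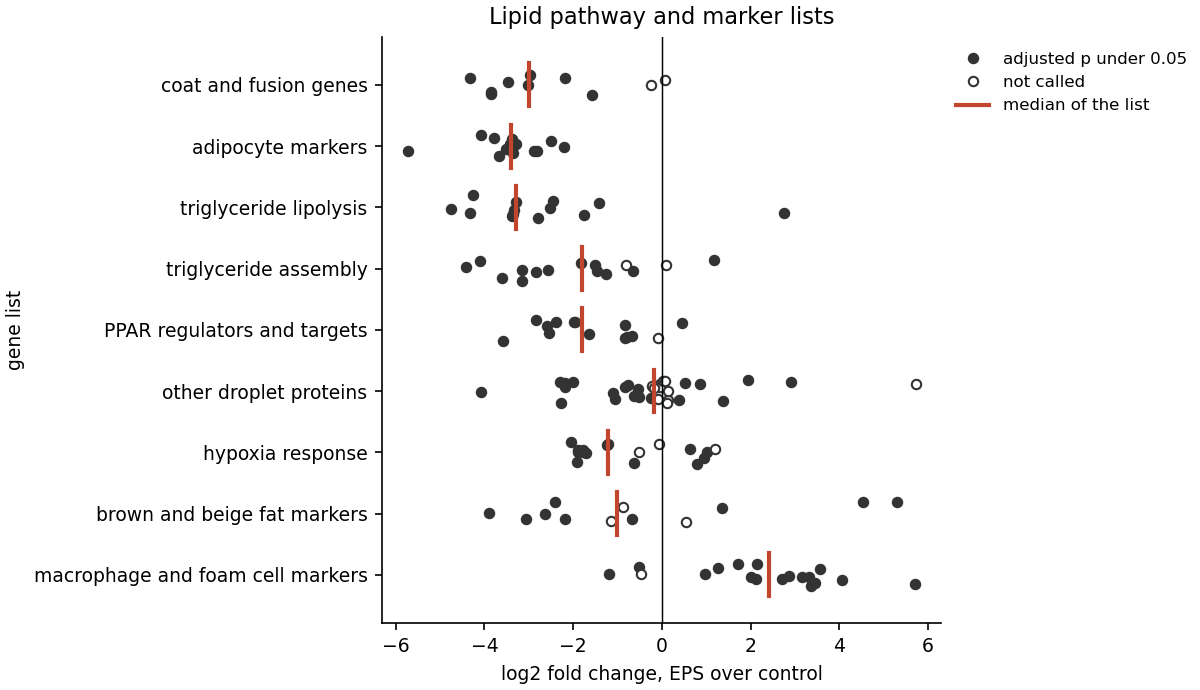
Log2 fold change of EPS over control for each tested gene of the droplet genes and 8 other lists, filled where the adjusted p is under 0.05, with the median of each list in red. The median of the coat and fusion genes, -2.99, lies near those of the adipocyte (-3.40) and lipolysis (-3.30) lists, with Plin2, Plin3 and Hilpda to the right of it, and the macrophage median lies at 2.42.

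Among 12018 other genes with a mean of at least 50 counts, those closest to Plin1 over the 6 libraries were Tmem120a, Mmd and Acbd4, at Euclidean distances of 0.207, 0.253 and 0.281 between log2 CPM values centred on each gene's mean. Closest to Plin2 were Slc25a20, the mitochondrial carnitine carrier, Gfod1 and Slc25a25, at 0.194, 0.197 and 0.200. For Plin3 they were Xrcc6, Gga2 and Rraga (0.0638, 0.0732 and 0.0805), and for Hilpda Gtf2b, Wdr20 and Exoc5 (0.0864, 0.147 and 0.164). Slc25a20 averaged 40.4 CPM in EPS and 121.6 CPM in control, and Tmem120a 37.1 CPM in EPS and 276.5 CPM in control.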

How the data were processed

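Polyadenylated RNA of 6 peritoneum libraries was sequenced, per the labels' protocols, from Trizol extracts with random priming and no step that marks strand. The authors deposited whole-number counts for each gene symbol that had not been normalized, as their values show. The build was mm10, per the submitters' processing notes, and no aligner, counter or annotation is named in the labels. Positions and exon lengths are from GENCODE vM21 (GRCm38, the assembly of mm10), with exons of all transcripts of a gene merged, and start regions from RefSeq.

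Genes kept by filterByExpr (13980) were compared, EPS over control, with edgeR 4.0.16 in R 4.3.3: TMM factors, robust quasi-likelihood F-test, Benjamini-Hochberg adjustment over all tested genes, call at adjusted p under 0.05. A CPM carries the SD over 3 libraries and a log2 fold change its standard error. Ratios and shares were compared by exact permutation over 20 splits. Tests were checked on simulated data in which few genes differed, equally in both directions, with the same dispersion for all genes. That check does not cover a difference as broad as the one here, nor a library like EPS 1. Named in 8 of the 13 other lists are up to 4 called genes of lowest adjusted p. From the remaining lists, all of cell type markers, no gene was named by this rule. Genes closest to 4 members were chosen by distance of log2 CPM (prior count 2). The members and lists were chosen with earlier results of these data known. Alternatives used RLE, upper-quartile or no factors, no filter, DESeq2 1.42.0, limma-voom (limma 3.58.1), each library left out, a replicate block and controls 1 and 2 averaged. Controls 1 and 2 were closer than other pairs (mean chi-square per gene 4.41, against 15.9 and 16.4 with control 3) but above sampling noise. This cannot show whether they come from separate mice, and they were kept as 2 libraries.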

Additional observations from a re-analysis of the deposited data

How the results depend on the processing

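The count of 8 droplet genes called, all lower in EPS, was 8 under each of the 15 other settings run, with 0 higher. The log2 fold changes ranged from -4.56 to -3.87 for Cidea, -4.01 to -3.42 for Plin4, -3.98 to -3.42 for Plin5, -3.59 to -3.02 for Cidec, -3.15 to -2.55 for Plin1, -3.06 to -2.52 for Fitm2, -2.33 to -1.75 for Bscl2 and -1.79 to -1.14 for Plin2, each range ending at its upper end with library totals. Plin3 was called under none (adjusted p 0.0543 to 0.410) and stood at 0.17 with library totals. Hilpda was called under none (adjusted p 0.209 to 0.995); it stood at -0.011 without EPS 1, -0.0022 without control 1 and, in a setting chosen after seeing the data, at -0.028 without EPS 1 and with the mean of controls 1 and 2 as 1 library. Relative to the geometric mean of the adipocyte markers, also chosen after seeing the data, Plin1, Cidec and Fitm2 reversed to 0.47, 0.020 and 0.54. Of 134 genes tested in the 8 other lists, 113 were called, and 104 to 115 under the alternatives. With library totals the other droplet proteins split into 10 higher and 8 lower, in place of 6 and 14. Macrophage markers lower in EPS were 2, and 0 with library totals or 1 without EPS 3, control 2 or control 3, and without EPS 1 with controls 1 and 2 averaged. Skeletal muscle markers higher in EPS were 4, and 2 without the low-count filter, with limma-voom, with controls 1 and 2 averaged or without EPS 1, EPS 3, control 2 or control 3; those lower were 3, and 1 without control 2. Of the mesothelial markers 0 were higher and 1 lower; without EPS 3 these were 4 and 2, and 2 were higher with DESeq2, 1 with library totals, and 2 lower with the replicate block. Without EPS 1, 1 acinar marker was lower, in place of 0. Plin2 over Plin1 differed by 1.34 to 1.62 with a library left out. Without division by exon length the share of Plin1 differed by -1.78 points in place of -6.09 and that of Plin5 by -0.225 in place of -0.588.

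Replicate numbers are shared between the groups, and the labels do not say whether they pair the libraries. The correlation of same-numbered deviations from the group means was 0.201, -0.0952 and 0.236. EPS 1 and EPS 3 correlated best with the control of the same number, and EPS 2 correlated best with control 3. With so few libraries these correlations cannot decide whether the libraries are paired. With the replicate block 8 droplet genes were called, 8113 of all genes in place of 8333, and the paired sign-flip test of Plin2 over Plin1 gave a difference of 1.44 and an exact p of 0.25, the smallest that 3 pairs allow. The lowest counts of the 10 genes were those of Plin5 in EPS (22, 43 and 46), and Hilpda had 73, 77 and 80 there.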
